A study of Mus musculus with 6 samples.

Results

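The genes described here are the axon guidance ligands and receptors of the mouse: the semaphorins of classes 3 to 7, the plexins and neuropilins, the ephrins and Eph receptors, the Slits and Robos, the netrins with Dcc, neogenin and the Unc5 receptors, and the repulsive guidance molecules Rgma and Rgmb. They were chosen by symbol and without regard to their values. The count tables list 55341 gene symbols, of which 74 matched, 39 for ligands and 35 for receptors. Of these, 69 reached 1 CPM (read counts scaled to a common library size) in at least 3 of the 6 libraries and were tested among 16685 genes. No member entered the test through 1 group only, and 66 of the 69 reached 1 CPM in all 6 libraries. The 5 that were not tested were Epha6, Ntn5, Robo3, Robo4 and Slit1, which held from 0 to 15 counts per library.

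The libraries were made from poly(A) RNA of cultured cerebellar granule neurons (CGNs), 3 labelled DMSO, the vehicle, and 3 labelled GSK-126, a small molecule that inhibits EZH2, the enzyme that places H3K27me3 on the promoters of silenced genes. According to the methods, the cells were granule neuron precursors of CD1-IGS mice aged 6 to 8 postnatal days, enriched on a Percoll gradient from pooled cerebella. All cultures, DMSO included, received cytosine arabinoside, which kills dividing cells, on the second day in vitro. GSK-126 went in once, on the first or the third day, and the cells were harvested on day 5. The labels give the agent and the replicate number but neither dose nor day, and they name the source as cerebellum. The names of the deposited tables carry the code D1, which may stand for addition on the first day. The drug was given to the whole culture, not to its neurons alone. The study used the drug to ask about EZH2 in neurons that have stopped dividing. Bulk RNA of these cultures does not assign a difference to those neurons. Here the comparison is read for the genes that steer axons and migrating cells.

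Guidance ligands are secreted or held on the cell surface, and growth cones read them through receptors that reorganise the cytoskeleton toward or away from the source. Class 3 semaphorins are secreted and mostly bind neuropilins, which have a short intracellular tail and signal through plexins. Sema3e is the exception and binds the plexin Plxnd1 directly. Slits repel axons through Robo receptors, netrins attract through Dcc and repel through Unc5 proteins, and ephrins and Ephs are both held at the membrane and can signal in both directions. In the cerebellum these families guide the inward migration of granule neurons and the growth of their parallel fibres. The same molecules act in blood vessels and in the meninges, where neuropilins also serve as coreceptors for vascular growth factors.

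Inhibitors of EZH2 act through chromatin, and H3K27me3 is often found at promoters rich in CG dinucleotides. The RefSeq promoter sequences of 4 of the 6 genes that rose are shown as a description, with every CG in capitals. Each runs from 250 bases before to 50 bases after a RefSeq start site on the gene's own strand (build GRCm38.p6). Nrp1 and Nrp2, which also rose, are not shown, and their windows hold 14 and 37 CG. Of the 4 shown, only Slit2 is on the study's list of promoters that lose H3K27me3 after GSK-126. The Sema3c start site lies inside the GENCODE gene, downstream of the start given for it here. Sema3e is at chr5:14025026-14025325 on the plus strand, Sema3c at chr5:17574566-17574865 (plus), Slit2 at chr5:47982905-47983204 (plus) and Plxnd1 at chr6:115994956-115995255 (minus).
Sema3e: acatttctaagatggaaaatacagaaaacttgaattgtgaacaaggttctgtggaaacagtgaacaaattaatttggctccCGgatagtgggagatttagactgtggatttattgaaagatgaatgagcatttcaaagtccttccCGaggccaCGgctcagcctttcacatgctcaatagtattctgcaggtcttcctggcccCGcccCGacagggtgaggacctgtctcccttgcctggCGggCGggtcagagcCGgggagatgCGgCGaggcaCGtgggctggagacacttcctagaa
Sema3c: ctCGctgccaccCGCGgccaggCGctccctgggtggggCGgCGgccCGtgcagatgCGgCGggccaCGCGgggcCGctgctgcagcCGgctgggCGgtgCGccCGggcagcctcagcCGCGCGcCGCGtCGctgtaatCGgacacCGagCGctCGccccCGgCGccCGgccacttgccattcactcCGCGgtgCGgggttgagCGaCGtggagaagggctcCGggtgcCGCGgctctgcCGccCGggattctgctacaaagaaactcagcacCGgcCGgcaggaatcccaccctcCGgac
Slit2: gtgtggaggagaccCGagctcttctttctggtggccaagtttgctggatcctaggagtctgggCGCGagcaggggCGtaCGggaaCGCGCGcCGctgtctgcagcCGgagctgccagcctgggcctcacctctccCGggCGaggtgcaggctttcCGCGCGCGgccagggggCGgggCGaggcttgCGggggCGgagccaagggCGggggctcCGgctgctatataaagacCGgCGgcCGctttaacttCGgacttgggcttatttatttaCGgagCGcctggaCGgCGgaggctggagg
Plxnd1: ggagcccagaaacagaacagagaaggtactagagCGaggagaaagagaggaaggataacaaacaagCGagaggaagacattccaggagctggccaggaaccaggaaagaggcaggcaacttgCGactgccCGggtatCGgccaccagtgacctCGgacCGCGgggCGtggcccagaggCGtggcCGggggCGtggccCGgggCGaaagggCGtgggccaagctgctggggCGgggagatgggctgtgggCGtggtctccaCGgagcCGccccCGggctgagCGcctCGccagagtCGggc
The 4 differ in CG content: the Sema3c window holds 42 CG, Slit2 30, Plxnd1 23 and Sema3e 11. Of all 32851 promoter windows in the table, 3.03% hold as many CG as Sema3c and 41.4% as many as Sema3e. For members with several windows, that with the most CG was taken. Among the 63 members with a RefSeq window the median was then 23 CG. Over all windows, with no such choice per gene, it was 7, so these medians are unlike measures. The median was 26.5 in the 6 members called higher, 28.5 in the 2 called lower and 23 in the 51 tested members that were not called and have a window. CG content is a description of the sequence and was not tested against the response.

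Of the 69 members tested, 6 rose and 2 fell after GSK-126 (edgeR quasi-likelihood test with the replicate number as a block, Benjamini-Hochberg adjusted p under 0.05 over all genes). The genes that rose were the secreted ligands Sema3c, Sema3e and Slit2 and the receptors Nrp1, Nrp2 and Plxnd1. The transmembrane semaphorins Sema4c and Sema5b fell. Over all 16685 genes tested, 2.23% were called higher and 1.38% lower, and the members stood at 8.7% and 2.9%. The families had no common direction: the median log2 fold change was 0.03 over the 69 members and -0.00 over all genes, with 38 members above 0 and 31 below.

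These calls rest on the pairing of the libraries by replicate number. Without that block, edgeR called 0 of the 16685 genes. At an unadjusted p under 0.05 it then picked 996 genes, 5.97% of all tested, and 11 of the 69 members. DESeq2 without the block called 46 genes higher and 12 lower, and Slit2 was the only member among them. DESeq2 and limma-voom with the block each called the same 8 members as edgeR.

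The cultures hold more than granule neurons, and several marker lists differed between the groups. Granule neuron markers were present, and 6 of 16 were called lower and 0 higher. Among those that fell were Gabra6, the receptor subunit of mature granule neurons (log2 fold change -1.42), and Etv1 (-1.06). Tubb3 (0.36), Pax6 (0.04) and Neurod2 (0.005) had positive log2 fold changes and were not called, and the rest of the list was negative. The list summed to between 6771 and 8945 CPM in DMSO and between 4890 and 7515 CPM in GSK-126, ranges that overlap. Meningeal fibroblast markers summed to between 6951 and 8962 CPM in DMSO and between 8969 and 10035 CPM in GSK-126, with Col1a1 and Igf2 higher and Slc6a13 lower among 10. Mural cell markers summed to between 698 and 1174 CPM in DMSO and between 1246 and 1610 CPM in GSK-126, with Pdgfrb, Acta2 and Tagln higher among 9 tested. The sums of these 2 lists did not overlap between groups and were higher in GSK-126, as were Sema3c, Sema3e, Slit2, Nrp1, Nrp2 and Plxnd1. That direction was not particular to them. The median log2 fold change was 0.61 for mural and 0.24 for fibroblast markers. It was 0.36 for microglia, 0.24 for endothelial, 0.17 for oligodendrocyte, 0.06 for astrocyte and 0.02 for cell cycle genes. For granule neuron and GABAergic markers it was -0.28 each. The fibroblast ranges nearly met. Most of the fibroblast sum is Col1a1, Col1a2 and Col3a1, and most of the mural sum is Acta2, Tagln and Pdgfrb. The fibroblast markers Pdgfra and Slc6a13 and the mural marker Abcc9 had negative log2 fold changes. The part of these cell types in the guidance results was not tested. In bulk RNA, more cells of a type and more RNA per cell cannot be told apart.

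**Figure D1:**
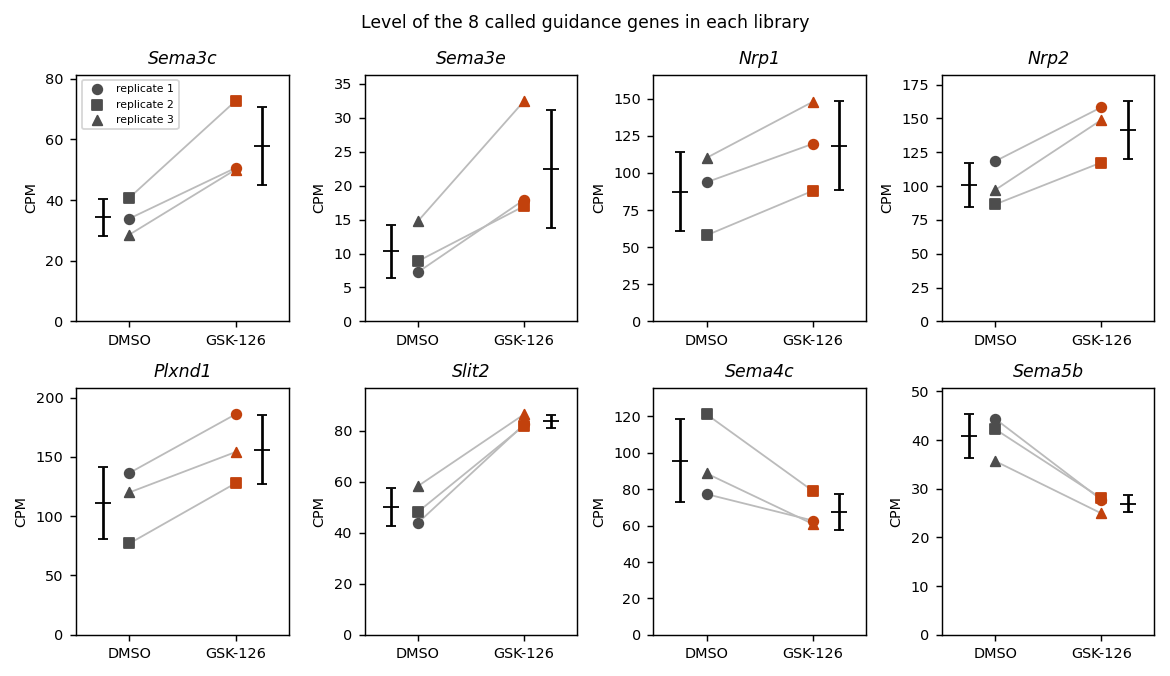
Level in CPM of the 8 guidance genes called, in the 3 DMSO (grey) and 3 GSK-126 (orange) libraries, with the marker shape giving the replicate number, grey lines joining libraries of 1 number, and black bars the mean ± SD (n = 3). All 3 lines rise for Sema3c, Sema3e, Nrp1, Nrp2, Plxnd1 and Slit2 and fall for Sema4c and Sema5b, while the groups overlap for Nrp1, Nrp2, Plxnd1 and Sema4c.

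Sema3e (ENSMUSG00000063531.7, chr5:14025276-14256689) changed by the largest fold of the members called. Its ligand repels growing axons and vessel sprouts through Plxnd1. In DMSO replicates 1, 2 and 3 it was at 7.26, 8.87 and 14.8 CPM, and in GSK-126 at 17.9, 17.0 and 32.5 CPM. Replicate 3 was the highest in both groups, and the lowest GSK-126 library still lay above the highest DMSO library. Mean levels were 10.3 ± 3.95 and 22.4 ± 8.68 CPM (SD, n = 3), a log2 fold change of 1.13 ± 0.183 (SE, adjusted p = 0.00826 by edgeR).

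Sema3c (ENSMUSG00000028780.13, chr5:17574281-17730268) encodes a ligand of both neuropilins that can attract or repel depending on the cell. It was at 33.9, 40.7 and 28.6 CPM in DMSO and at 50.6, 72.6 and 49.99 CPM in GSK-126. The groups did not overlap, and replicate 2 was the highest in each. The log2 fold change was 0.74 ± 0.127 (SE, adjusted p = 0.0103 by edgeR), from a mean of 34.4 ± 6.09 to 57.7 ± 12.9 CPM (SD, n = 3). Without the libraries of replicate 2 the fold change was 0.71 but the edgeR adjusted p was 0.0622.

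Slit2 (ENSMUSG00000031558.15, chr5:47983138-48307733), a repellent read by Robo1 and Robo2, rose to nearly the same level in the 3 treated libraries. The DMSO libraries lay at 43.9, 48.2 and 58.4 CPM and the GSK-126 libraries at 82.6, 82.1 and 86.5 CPM. The GSK-126 values lay within a few CPM of each other and well above all DMSO values. The mean went from 50.2 ± 7.42 to 83.7 ± 2.44 CPM (SD, n = 3), and the fitted log2 change was 0.75 ± 0.120 (SE, adjusted p = 0.00752 by edgeR). Sema3e and Slit2 were the members that stayed past the threshold whichever replicate number was left out. Their edgeR adjusted p then ran from 0.0131 to 0.0239 and from 0.00419 to 0.0357.

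The receptors that rose belong to the class 3 semaphorin pathway. Nrp1 (ENSMUSG00000025810.9, chr8:128358604-128503363), the coreceptor of Sema3a and of vascular endothelial growth factor, was at 93.7, 58.0 and 110 CPM in DMSO and at 120, 87.9 and 148 CPM in GSK-126. Its groups overlapped, since GSK-126 replicate 2 lay below DMSO replicates 1 and 3, but each GSK-126 library was above the DMSO library of its number. The log2 fold change was 0.46 ± 0.109 (SE, adjusted p = 0.0437 by edgeR).

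Nrp2 (ENSMUSG00000025969.15, chr1:62703285-62818695), the coreceptor of Sema3f, was at 118, 86.5 and 97.1 CPM in DMSO and at 158, 117 and 149 CPM in GSK-126. Only GSK-126 replicate 2 reached down into the DMSO range. It rose by a log2 fold change of 0.49 ± 0.107 (SE, adjusted p = 0.0285 by edgeR). Plxnd1 (ENSMUSG00000030123.15, chr6:115954811-115995005), the receptor of Sema3e, was at 136, 77.0 and 120 CPM in DMSO and at 186, 128 and 154 CPM in GSK-126. Replicate 2 was again the lowest of each group and the ranges overlapped. Its log2 fold change was 0.51 ± 0.113 (SE, adjusted p = 0.0315 by edgeR).

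All 3 receptor calls depend on single replicate numbers. They passed the threshold when replicate 1 was left out. Without replicate 2 the edgeR adjusted p was 0.192 for Nrp1, 0.0869 for Nrp2 and 0.179 for Plxnd1, and without replicate 3 it was 0.231, 0.306 and 0.0711. The fold changes kept their sign throughout, from 0.40 to 0.59 on the log2 scale over these fits. The Nrp1 call also ended when libraries were scaled by their total counts alone (edgeR adjusted p = 0.0558).

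Sema4c and Sema5b were the members that fell. Sema4c (ENSMUSG00000026121.13, chr1:36548639-36558349), a membrane ligand of Plxnb2, was at 77.3, 121 and 88.7 CPM in DMSO and at 62.8, 79.1 and 60.9 CPM in GSK-126. GSK-126 replicate 2 lay just above DMSO replicate 1, so the ranges overlapped, although each pair fell. The log2 fold change was -0.49 ± 0.115 (SE, adjusted p = 0.0411 by edgeR), and the call was lost without replicate 2 (0.228) or replicate 3 (0.268). In the annotation 7.27% of its exon length overlaps a gene on the opposite strand, and the counting was not stated to use strand.

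Sema5b (ENSMUSG00000052133.16, chr16:35541145-35664732) encodes a transmembrane semaphorin with thrombospondin repeats that inhibits neurite growth in the retina. It was at 44.4, 42.2 and 35.7 CPM in DMSO and at 27.7, 28.1 and 24.9 CPM in GSK-126. The groups did not overlap and were both narrow. The mean went from 40.8 ± 4.53 to 26.9 ± 1.72 CPM (SD, n = 3), and the fitted log2 change was -0.60 ± 0.136 (SE, adjusted p = 0.0353 by edgeR). With any 1 replicate number left out the edgeR adjusted p rose, to 0.0633, 0.143 and 0.129 without replicates 1, 2 and 3.

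Separation of the groups gives a view that does not need the pairing. Every GSK-126 library lay above every DMSO library for 8 members, which were Efna5, Plxna3, Sema3c, Sema3d, Sema3e, Sema4d, Sema6a and Slit2, or 11.6% of those tested against 5.41% of all genes. Every GSK-126 library lay below every DMSO library for Ephb3 and Sema5b, or 2.9% against 5.43%. All 3 pairs rose for 20 members and fell for 19, or 29.0% and 27.5% of those tested. Over all genes 19.6% rose and 19.2% fell in all 3 pairs. With 3 libraries a group, an exact two-sided permutation test of a single gene cannot go below p = 0.1, so no such test is given.

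**Figure D2:**
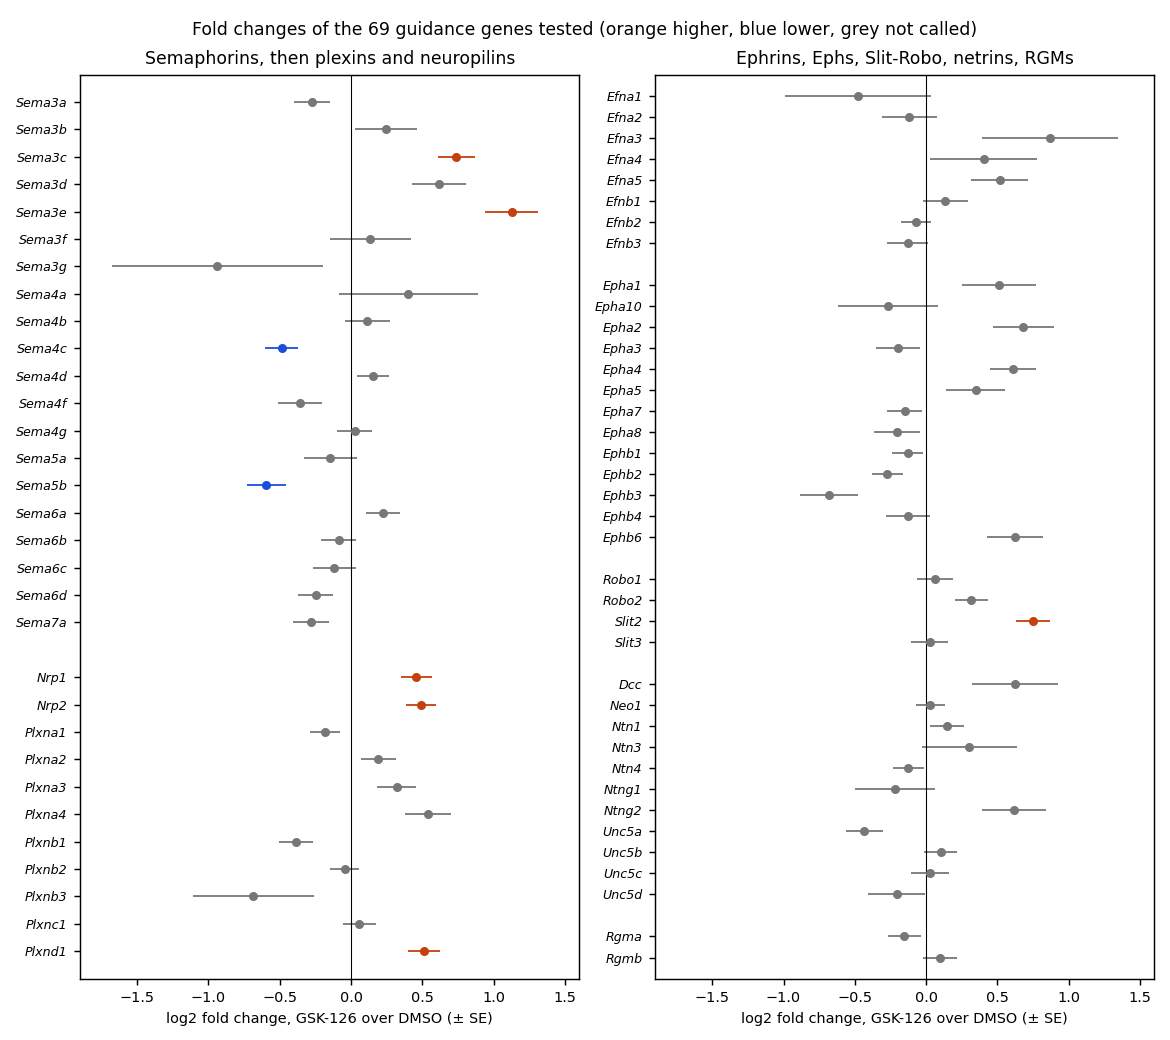
Log2 fold change of GSK-126 over DMSO (points, horizontal axis) with its SE (bars) for the 69 guidance genes tested, by family. Orange marks the 6 genes called higher, blue the 2 called lower, grey the rest, and the called genes lie among the semaphorins, plexins, neuropilins and Slits, and the ephrins, Ephs, netrins and RGMs are grey throughout.

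Within the semaphorins 2 of 20 members rose and 2 fell, and their median log2 fold change was -0.03. The secreted class 3 had 7 members tested, 2 called higher, 0 called lower and a median of 0.24. Sema3a, which repels many axons through Nrp1, was at 119, 96.8 and 77.1 CPM in DMSO and at 79.4, 95.1 and 66.6 CPM in GSK-126. It was lower in each pair without passing the test (log2 fold change -0.27, adjusted p = 0.308 by edgeR). Per kb of all annotated exons, Sema3c stood at 0.554, 0.817 and 0.720 of the Sema3a level in the DMSO libraries and at 1.24, 1.48 and 1.46 of it in the GSK-126 libraries. The balance moved toward Sema3c in each pair, with no overlap between groups. This direction follows from the values of the 2 genes given above and is not a separate result. Sema3a was the more abundant in DMSO by either length, but in GSK-126 the order depends on the length used, since per kb of the longest transcript the ratio ran from 0.308 to 0.454 in DMSO and from 0.688 to 0.824 in GSK-126.

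The remaining class 3 ligands did not pass the test. Sema3d, a ligand known from heart and vessel development, was at 99.2, 62.9 and 70.4 CPM in DMSO and at 103, 155 and 100 CPM in GSK-126 (log2 fold change 0.61, adjusted p = 0.112 by edgeR). Its groups did not overlap, but GSK-126 replicate 2 stood far above the other libraries. The edgeR adjusted p for Sema3d was 0.00960, 0.410 and 0.0309 without replicates 1, 2 and 3. Sema3b and Sema3f had log2 fold changes of 0.24 and 0.13. Sema3g, a semaphorin of vessels, had the lowest log2 fold change of the members, -0.94, at levels near the detection limit: 2.30, 2.12 and 0.709 CPM in DMSO and 0.167, 2.65 and 0.569 CPM in GSK-126. Its groups overlapped fully and its sign turned without replicate 1 (0.10).

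Sema3d, Sema3a, Sema3e and Sema3c are neighbours on chromosome 5, inside chr5:12383385-17730268. This stretch of 5.35 Mb holds 11 tested genes. None of the 7 that are not semaphorins was called, and their median log2 fold change was -0.34. Among them Hgf, the hepatocyte growth factor that attracts motor axons, was at 3.69, 2.62 and 3.90 CPM in DMSO and at 7.50, 7.59 and 6.61 CPM in GSK-126 (log2 fold change 1.09, adjusted p = 0.0771 by edgeR). Its groups did not overlap. The long neuronal genes Pclo, of the presynaptic active zone, and Cacna2d1, a calcium channel subunit, had log2 fold changes of -0.34 and -0.40. The differences along the stretch thus had both signs, and Sema3a between Sema3d and Sema3e was on the negative side.

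Among the membrane-bound semaphorins, class 4 had 1 of 6 members called lower, class 5 had 1 of 2 and classes 6 and 7 had none called. Sema6a, which works with Plxna2 in the migration of granule neurons, was among the 3 highest semaphorins per exon length and had a log2 fold change of 0.22 (edgeR adjusted p = 0.394). The DMSO libraries held 169, 155 and 163 CPM and the GSK-126 libraries 170, 220 and 181 CPM. The highest DMSO and lowest GSK-126 library were 169 and 170 CPM, so the groups barely separated. Sema7a, a lipid-anchored semaphorin that promotes axon growth, had a log2 fold change of -0.28 (edgeR adjusted p = 0.299).

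Plexins and neuropilins, the semaphorin receptors, had 3 of 11 members called higher, 0 called lower and a median of 0.19. The 4 A plexins, which pair with neuropilins, had a median of 0.26, with Plxna4 at 0.54 (edgeR adjusted p = 0.110) and Plxna1 at -0.18. The 3 B plexins had negative values and a median of -0.39, although Plxnb2 turned positive without replicate 2 (0.049), and 0 of them passed the test. Plxnb2, required for normal granule cell layers, was at 460, 441 and 413 CPM in DMSO and at 473, 383 and 420 CPM in GSK-126. These ranges overlapped and the log2 fold change was -0.05 ± 0.102 (SE, adjusted p = 0.882 by edgeR). Plxnb3 had a larger but poorly measured value of -0.68 ± 0.424 (SE, adjusted p = 0.467 by edgeR), from 5.19, 2.87 and 1.65 CPM in DMSO to 2.75, 1.57 and 1.48 CPM in GSK-126. It was lower in each pair, yet the overlap between the groups was wide.

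Beside Slit2, its relative Slit3 showed no difference beyond its error. Slit3 was at 33.8, 72.7 and 48.6 CPM in DMSO and at 34.1, 63.3 and 58.3 CPM in GSK-126 (log2 fold change 0.02 ± 0.131, SE, adjusted p = 0.959 by edgeR). Replicate 2 was the highest in both groups. Per kb of all annotated exons, Slit2 stood at 0.310, 0.158 and 0.287 of the Slit3 level in DMSO and at 0.578, 0.309 and 0.354 of it in GSK-126. The ratio was higher in each pair, and the groups overlapped by a hair at DMSO replicate 1 and GSK-126 replicate 2. Per kb of the longest transcript it ran from 0.348 to 0.683 in DMSO and from 0.681 to 1.27 in GSK-126, so which Slit is the more abundant after GSK-126 depends on the library and the length used. Of the receptors, Robo1 had a log2 fold change of 0.06 and Robo2 of 0.32 (edgeR adjusted p = 0.871 and 0.193).

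Ephrins and Eph receptors were not called in either direction, with 8 and 13 members tested and medians of 0.03 and -0.13. Epha4, a receptor for both ephrin classes, came closest, at 24.0, 19.0 and 27.3 CPM in DMSO and 46.4, 25.4 and 36.8 CPM in GSK-126. It was higher in each pair, but GSK-126 replicate 2 lay inside the DMSO range, and the log2 fold change of 0.61 ± 0.160 (SE) had an edgeR adjusted p of 0.0636. Ephb3 was at 18.6, 19.1 and 18.4 CPM in DMSO and at 15.8, 10.4 and 9.34 CPM in GSK-126. All of its GSK-126 libraries were lower than all DMSO libraries, and the log2 fold change of -0.68 ± 0.206 (SE) had an edgeR adjusted p of 0.107.

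The other B-type receptors were on both sides of 0. Ephb6, which lacks kinase activity, had a log2 fold change of 0.62 (edgeR adjusted p = 0.120), and the other 4 were negative. Ephb1, the Eph receptor with the highest level per exon length, was at 133, 170 and 137 CPM in DMSO and at 115, 169 and 122 CPM in GSK-126. These ranges overlapped (log2 fold change -0.13, adjusted p = 0.602 by edgeR). Epha2, better known from epithelia, was at 5.30, 8.25 and 9.57 CPM in DMSO and at 8.58, 12.9 and 15.6 CPM in GSK-126. It was higher in each pair with overlapping groups (log2 fold change 0.68, adjusted p = 0.122 by edgeR).

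Ephrin-B2, encoded by Efnb2, was the ephrin with the highest level, at 95.9, 114 and 112 CPM in DMSO and 91.2, 115 and 101 CPM in GSK-126. The groups overlapped almost entirely (log2 fold change -0.07, adjusted p = 0.808 by edgeR). Efna5, a repellent of axons in topographic maps, was at 10.03, 11.5 and 13.6 CPM in DMSO and at 16.6, 18.4 and 15.03 CPM in GSK-126. It was higher in every GSK-126 library than in every DMSO library but did not pass the test (log2 fold change 0.52, adjusted p = 0.216 by edgeR). Efna3 had the largest value of the family, 0.87 ± 0.475 (SE, adjusted p = 0.406 by edgeR), on 0.807, 1.00 and 4.96 CPM in DMSO and 3.08, 2.29 and 4.78 CPM in GSK-126. Its highest library was a DMSO library, and 14.1% of its exon length overlaps a gene on the other strand.

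Netrins and their receptors had 0 of 11 members called and a median of 0.03. Ntn1 was at 71.4, 69.4 and 71.8 CPM in DMSO and at 87.8, 79.2 and 69.01 CPM in GSK-126. GSK-126 replicate 3 fell below the DMSO range while the other 2 lay above it (log2 fold change 0.15, adjusted p = 0.603 by edgeR). Its attractive receptor Dcc was among the scarcest members, at 0.295 ± 0.119 CPM per kb in DMSO (SD, n = 3), whereas the related receptor Neo1 was at 29.5 ± 4.27 CPM per kb. Unc5b was at 230, 228 and 196 CPM in DMSO and at 203, 277 and 227 CPM in GSK-126. The pairs moved in both directions (log2 fold change 0.10, adjusted p = 0.731 by edgeR). Unc5a, a repulsive netrin receptor of neurons, had a log2 fold change of -0.43 and was lower in each pair (edgeR adjusted p = 0.104).

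The neogenin ligands were measured with small errors. Rgma was at 89.1, 62.6 and 56.5 CPM in DMSO and at 77.1, 53.5 and 55.7 CPM in GSK-126. Its ranges overlapped (log2 fold change -0.15 ± 0.115, SE, adjusted p = 0.569 by edgeR). Rgmb had a log2 fold change of 0.10 ± 0.119 (SE, adjusted p = 0.758 by edgeR). The 95% intervals of the edgeR fit were -0.40 to 0.10 for Rgma and -0.16 to 0.36 for Rgmb.

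**Figure D3:**
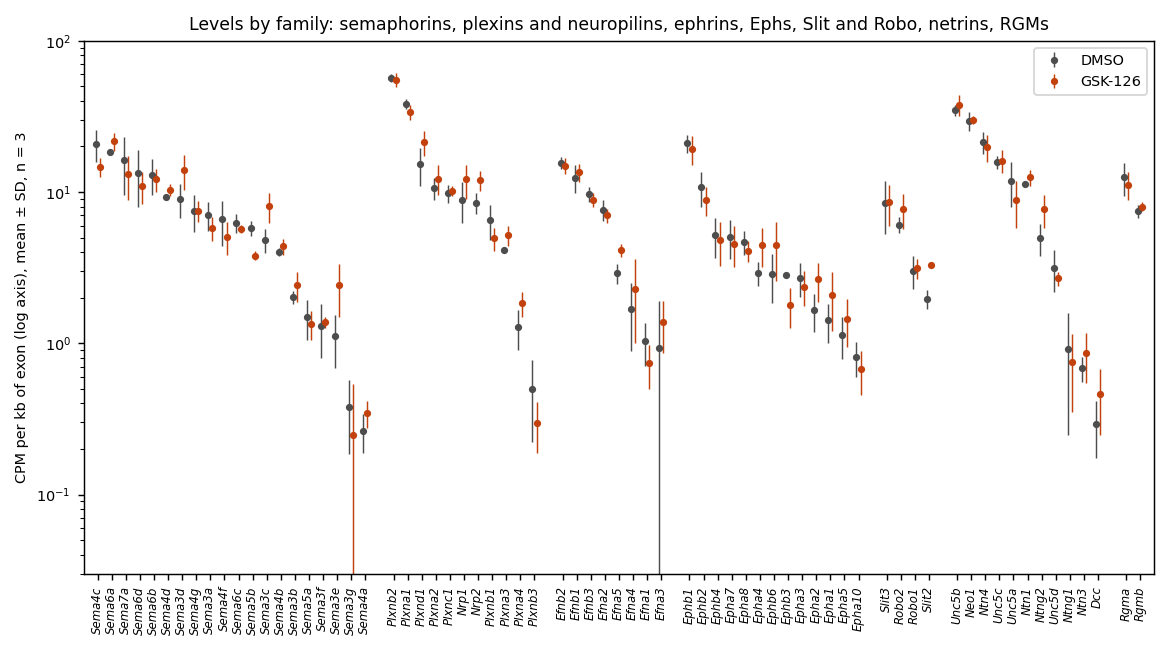
Level of the 69 guidance genes tested as CPM per kb of exon on a log axis, mean ± SD (n = 3) in DMSO (grey) and GSK-126 (orange), ordered within each family by the DMSO mean, and bars that reach 0 run to the lower edge. Plxnb2 and Plxna1 are the most abundant members and Sema4a and Dcc lie near 0.3, while Sema3e, Slit2, Sema3c and Plxnd1 rise by less than the spread between members of a family.

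The levels themselves spanned a wide range. Per kb of exon in DMSO, receptors led: Plxnb2 was at 56.7 ± 3.12 CPM, Plxna1 at 38.3 ± 2.92, Unc5b at 34.9 ± 3.00 and Neo1 at 29.5 ± 4.27 (SD, n = 3). The ranges of mean ± SD of Plxna1 and Unc5b meet, so their order is not resolved, and the same holds for Unc5b and Neo1. The ligands with the highest levels were Ntn4 at 21.5 ± 3.62, Sema4c at 20.8 ± 4.96 and Sema6a at 18.5 ± 0.825, again within each other's spread. The ligands that rose were scarce by comparison, with Sema3c at 4.82 ± 0.853, Slit2 at 1.97 ± 0.292 and Sema3e at 1.11 ± 0.426. Sema4a at 0.264 ± 0.0753, Dcc and Sema3g at 0.377 ± 0.193 were the lowest by either length and lay within each other's spread. The exons of Plxna1 overlap a gene on the opposite strand over 10.7% of their length, those of Rgma over 4.65% and those of Ephb1 over 2.17%. Lengths here are those of all annotated exons of a gene, and per kb of the longest transcript Slit2 was at 5.04 and Sema3e at 1.501 CPM. All members together summed to 4765, 4727 and 4435 CPM in DMSO and 4584, 5088 and 4742 CPM in GSK-126, ranges that overlap.

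The study measured H3K27me3 itself in other libraries and published lists of promoters that lose or gain the mark. Those lists rest on chromatin, not on the RNA counts used here. For the lists after GSK-126 the paper states addition on the first day, which the labels of the RNA libraries do not give. Promoters that lose H3K27me3 after GSK-126 included 7 members, Epha4, Epha6, Ntn1, Ntng1, Rgma, Rgmb and Slit2. Of the 6 tested 1 was called higher, Slit2, and the median log2 fold change was 0.12, against 0.25 over the 379 tested genes of the whole list, of which 39 were called higher and 3 lower. The other 5 members called higher were not on it. The list of gained H3K27me3 after GSK-126 held Sema4f alone of the members, with a log2 fold change of -0.36 ± 0.153 (SE, adjusted p = 0.264 by edgeR).

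Promoters that lose the mark as the cerebellum matures fall into an early and a late list. These come from cerebellar tissue of another mouse strain, not from cultured neurons. The paper compared its own GSK-126 RNA with lists of change in culture, which were not used here. The early one held 7 members, Efna1, Epha10, Ephb1, Nrp2, Rgmb, Sema6b and Unc5b, of which Nrp2 was called higher. Of the 519 tested genes of that list 12 were called higher and 52 lower. The log2 fold changes of the 7 members ran from -0.48 for Efna1 to 0.49 for Nrp2, with a median of -0.09 against -0.11 over the whole list. The late list held 11 members, of which Plxnd1 was called higher, and of its 568 tested genes 24 were called higher and 28 lower. The members were Epha1 (0.51), Epha2 (0.68), Epha8 (-0.20), Plxna1 (-0.18), Plxna4 (0.54), Plxnd1 (0.51), Rgma (-0.15), Sema3f (0.13), Sema6c (-0.12), Slit3 (0.02) and Unc5a (-0.43), all as log2 fold changes. Their median of 0.02 lay beside 0.03 for the whole list. Ntng1 was the only member whose promoter gains the mark in maturation (log2 fold change -0.22). The remaining 50 members were on no list, and of the 46 tested 3 rose, Nrp1, Sema3c and Sema3e, and 2 fell, Sema4c and Sema5b, with a median of 0.04.

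Outside the families of the rule, a list of 65 genes of guidance signalling had 64 tested, 1 called higher and 2 lower. Its median log2 fold change was 0.02. It holds kinases, collapsin response mediators, coreceptors and other signalling genes. Some of its genes, such as Draxin, Dscam and Flrt2, are secreted or on the cell surface and not downstream of receptors. Dock1, an activator of Rac, was at 49.6, 33.0 and 43.8 CPM in DMSO and at 67.5, 49.7 and 61.4 CPM in GSK-126 (log2 fold change 0.51, adjusted p = 0.0426 by edgeR). Pak1, a kinase that Rac activates, was at 258, 432 and 295 CPM in DMSO and at 163, 340 and 191 CPM in GSK-126 (log2 fold change -0.55, adjusted p = 0.0185 by edgeR). Srgap2, a partner of Robo receptors, fell as well (log2 fold change -0.49, adjusted p = 0.0360 by edgeR). The groups of Dock1 just separated, those of Pak1 and Srgap2 overlapped, and each pair moved in the direction of its call. A list of 26 other guidance cues and receptors, such as growth factors and Nogo receptors, had 24 tested, none called in the edgeR fit, and a median of 0.03. Dpysl4, Rtn4r and Celsr3 are listed at 0 in all 6 libraries. Whether they were not expressed or were lost in the counting was not tested.

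**Figure D4:**
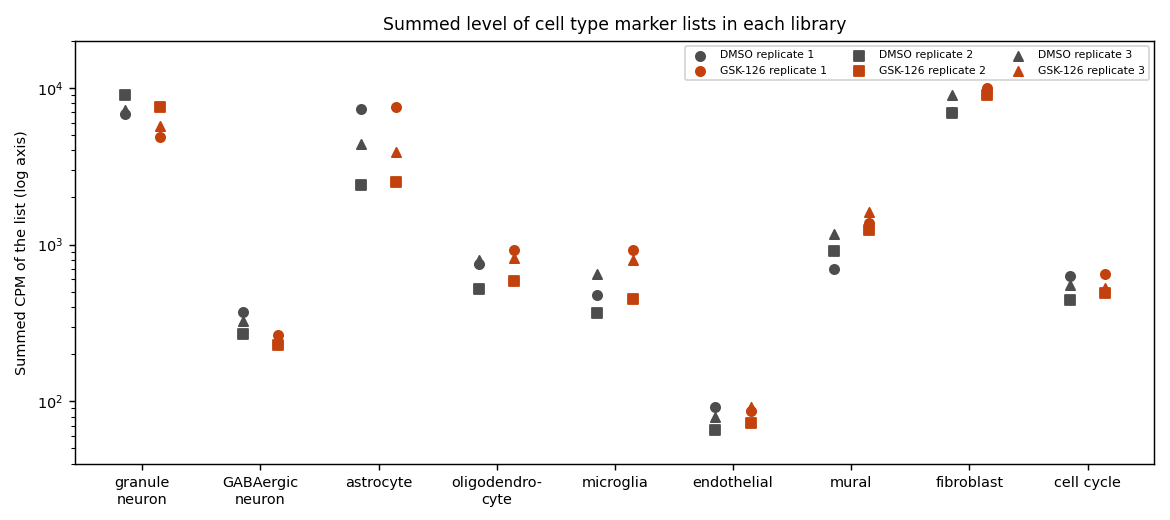
Summed CPM of 9 marker lists (log axis) in each library, DMSO grey and GSK-126 orange, with the marker shape giving the replicate number. The mural and fibroblast sums are higher in all 3 GSK-126 libraries than in all 3 DMSO libraries, the GABAergic sums are lower, and the astrocyte sums follow the replicate number.

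Of the other marker lists, the GABAergic sums did not overlap between the groups. Astrocyte markers summed to between 2419 and 7302 CPM in DMSO and between 2527 and 7589 CPM in GSK-126, lowest in replicate 2 and highest in replicate 1 of both groups, and 1 of 10 was called higher. Nrp1, Nrp2 and Plxnd1 were also lowest in replicate 2 of each group. So were the fibroblast, oligodendrocyte, microglia, endothelial, GABAergic and cell cycle sums, so this order is not particular to astrocytes. The part of any cell type in the levels of these receptors was not tested. Microglia markers had 3 of 10 higher (367 to 651 CPM in DMSO, 451 to 931 in GSK-126) and oligodendrocyte lineage markers 1 of 10 (524 to 796 and 585 to 925 CPM). Endothelial markers were scarce, with 1 of 8 tested higher and sums of 65.6 to 92.5 and 72.4 to 92.0 CPM. Of the GABAergic markers 2 of 10 were lower (268 to 370 and 227 to 265 CPM), and of 12 cell cycle genes none was called (440 to 634 and 492 to 646 CPM). No marker of these lists was at 0 in all libraries.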

How the data were processed

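The deposited values were raw counts per gene symbol, 1 table per library, which the authors made from poly(A) paired-end reads trimmed with Trimmomatic 0.38, aligned with STAR 2.7.2b to GRCm38 (mm10) and counted over exons with HTSeq. The methods name the Gencode annotation of GRCm38.p4. The strand setting is not given in the sources used here. From 58.4% to 60.9% of fragments named no gene and were left out. Libraries held between 8058760 and 12047837 counts over genes, so that 3 counts correspond to 0.250 to 0.375 CPM (counting error only). No 2 libraries agreed within sampling noise (lowest chi-square per degree of freedom 10.6).

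Genes with at least 1 CPM in 3 of 6 libraries were tested with edgeR 4.0.16 (TMM factors, glmQLFit with legacy=TRUE, glmQLFTest) with the replicate number as a block, after testing on simulated data. Values are CPM with TMM factors. Deviations from the group means correlated by 0.335, 0.484 and 0.497 between libraries of the same number and by -0.393 to -0.0147 between others. Because deviations are taken from group means, positive same-number values largely force the others below 0, so the latter are not separate support. The methods define a replicate as neurons of pooled litters. On the same-number values and this definition, the numbers were taken to pair the libraries. DESeq2 1.42.0 and limma 3.58.1, other scaling, other filters and left-out libraries were alternatives. Coordinates and exon lengths came from GENCODE M21 on GRCm38, which need not be the release that was counted. The labels do not say that cultures were separate, so p-values describe these libraries only. In the fits with the block they measure the spread that remains between libraries once the replicate number is accounted for.

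Named with the value in every library were the members called, the 2 members not called with the largest fold change in each direction and, per family, the member with the highest level per exon length in DMSO. Epha4, Ephb3, Efna5, Sema3a, Sema3d, Sema6a, Ntn1, Hgf, Dock1 and Pak1 were added after their values were seen. Members and lists were chosen with earlier results of these data known.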

Additional observations from a re-analysis of the deposited data

How the results depend on the processing

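With the replicate block, DESeq2, limma-voom, other size factors and filterByExpr called the same 8 members, and scaling by total counts lost Nrp1. The replicate block decided the counts: without it edgeR called 0 genes higher, 0 lower and 0 members, and DESeq2 called 46 genes higher and 12 lower, with 1 member higher and 0 lower. With no filter on low counts 708 genes were higher and 428 lower, and Epha4, Ephb3, Ntng2 and Sema3d joined the members called. With a replicate number or a single library left out (single libraries without the block), genes called higher ran from 0 to 372, genes called lower from 0 to 286, members called higher from 0 to 9 and members called lower from 0 to 2, and the median log2 fold change of the members from -0.037 to 0.116. Leaving out replicate 2 gave 167 genes higher and 74 lower, with 2 members higher. All 8 calls kept their sign under every alternative. Among the 18 members that the naming rule picked, signs turned in 7 that were not called, when libraries were left out. Other uncalled members near 0, Neo1 and Efnb1 among them, turned as well. For the 7, log2 fold changes ran from -0.16 to 0.0074 for Efnb2, from -0.31 to 0.0066 for Ephb1, from -0.13 to 0.049 for Plxnb2, from -0.35 to 0.069 for Rgma, from -2.25 to 0.10 for Sema3g, from -0.22 to 0.34 for Slit3 and from -0.0198 to 0.24 for Unc5b. The cause of these changes was not tested. Scarce members were measured least precisely, with an SE of 0.475 for Efna3, 0.741 for Sema3g and 0.424 for Plxnb3, and folds of the size seen there were not resolved. The part of depth in these errors was not tested.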
